A study of Mus musculus with 9 samples.

Results

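Newborn hearts of pups whose mothers ate a slight high-fat diet (sHFD) in pregnancy were compared here with those of pups whose mothers ate a normal diet (ND). All 6 libraries came from cardiomyocytes isolated on the day of birth (P0) from wild-type C57BL/6J mice, and each diet was fed from fertilization until delivery. They are 6 of the 9 libraries of the series: 3 sHFD and 3 ND, each group with replicates 1, 2 and 3, beside 3 libraries of a full high-fat diet (HFD) that enter here only where named. The labels give neither the fat content of the diets nor the number, sex or litter of the pups behind a library, so p-values measure the spread between these libraries, which may be partly technical. Expression is given as TPM, a transcript level scaled for gene length and for the library's total. Of 18738 genes listed, 13744 averaged 1 TPM or more across the 6 libraries and were tested. A difference is the mean log2(TPM + 1) of the sHFD libraries minus that of the ND libraries, so a value of 1 is a doubling for well expressed genes and understates the fold of genes near 1 TPM. In every pair of value sets below, the 3 values follow the order of replicates 1, 2 and 3, first in ND and then in sHFD.

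At birth the heart passes from glucose and lactate as its main fuels to fatty acids, which reach it in milk. Fatty acids bound by receptors of the PPAR family, with the coactivator PGC-1 and the ERR receptors, induce the genes for uptake, storage and oxidation of lipid. Cardiomyocytes also leave the cell cycle in this period and build up contractile protein. The stated purpose of the series is to find transcription changes behind poor proliferation of cardiomyocytes after the high-fat diet, and the slight diet provides an exposure between the others.

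With the slight high-fat diet, 2 genes passed an adjusted p of 0.05 in limma's moderated test, 0.0146% of those tested, and both fell: Tmem254c and Gm5796. No gene passed upward. At an unadjusted p under 0.05 limma gave 821 genes (5.97%), of which 373 (2.71%) were higher and 448 (3.26%) lower, and the smallest adjusted p after the called genes was 0.589. All 3 sHFD libraries lay above all 3 ND libraries for 619 genes (4.5%) and below them for 664 (4.83%). The median difference of all tested genes was 0.00295, with 6940 positive and 6804 negative values. The differences were small in size: 121 genes (0.88%) lay beyond 2-fold, and the 95% interval of 12025 genes (87.5%) stayed between -1 and 1. The interval reached 0.479 to either side for the median gene. A difference of that size there only reaches an unadjusted p of 0.05 in limma, which falls short of the adjusted threshold. On simulated data with 3 libraries a group, 0 of 70 genes changed by 0.5 and 27 of 70 changed by 1 were called. Each gene was drawn independently there, while these libraries differ in many genes at once, so the recovery does not measure the power of this comparison. Leaving out 1 library moved the number of called genes: 464 (3.38%: 274, or 1.99%, higher and 190, or 1.38%, lower) without ND replicate 2, 1 when ND replicate 3, sHFD replicate 1 or sHFD replicate 3 was dropped, and 0 when ND replicate 1 or sHFD replicate 2 was. The call without sHFD replicate 1 was Rps27rt, listed at 0 TPM in the ND libraries and at 0, 5.63 and 5.68 TPM in the sHFD libraries, and the other 2 single calls were Tmem254c.

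The ND libraries differed more among themselves than the sHFD libraries did. The median standard deviation of a gene within a group, on the log2(TPM + 1) scale, was 0.268 in ND and 0.196 in sHFD (n = 3 each). Against ND replicate 2 alone, 75 genes (0.546%) of the sHFD mean lay beyond 2-fold, 26 higher and 49 lower. Against ND replicate 3 alone there were 185 (1.35%), 67 higher and 118 lower, and against ND replicate 1 alone 1132 (8.24%), 640 higher and 492 lower. The median absolute difference of a gene was 0.36 against ND replicate 1, 0.16 against ND replicate 2 and 0.19 against ND replicate 3. Across genes, which are not independent replicates, ND replicate 2 correlated with the sHFD libraries at Pearson's r of 0.982 to 0.990. Its correlation was 0.979 with ND replicate 3 and 0.953 with ND replicate 1, and that of ND replicates 1 and 3 was 0.974. The first principal component of the 6 libraries, with 53.9% of their variance, put ND replicate 1 at -52.6, ND replicate 3 at -12.0, ND replicate 2 at 18.4 and the sHFD libraries between 13.5 and 17.4. Of 57 gene lists 46 had a median difference of at least 0.1 in size, and of these 21 had a median of the other sign against ND replicate 2 alone, 1 against ND replicate 1 alone and 3 against ND replicate 3 alone. Leaving out a library moved the median by more than 1.5 times in 31 of the 46 lists for ND replicate 1, 24 for ND replicate 2, 5 for ND replicate 3, and 13, 12 and 6 for sHFD replicates 1, 2 and 3. The replicates' part in these results beyond those values was not tested.

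**Figure D1:**
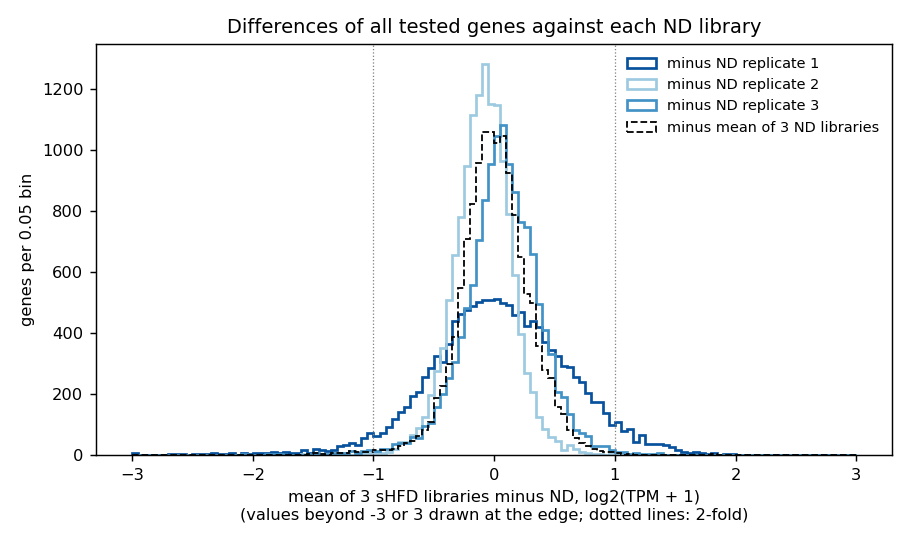
Number of tested genes (vertical axis, per bin of 0.05) by the mean of the 3 sHFD libraries minus ND on the log2(TPM + 1) scale (horizontal axis), drawn separately against each ND library and against their mean. The curve against ND replicate 1 is the widest, with 1132 genes beyond the dotted 2-fold lines, and that against ND replicate 2 the narrowest, with 75.

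In both called genes, most stretches of 31 bases of the transcript also occur in transcripts of other genes. Tmem254c encodes a small predicted membrane protein and lies on chromosome 14 (GRCm38, 26063751 to 26067425), near its copies Tmem254a (25923298 to 25927672) and Tmem254b (26203366 to 26207025). The coding sequences of the 3 copies, 387 bases each in the GENCODE M21 transcripts of GRCm38, are identical. Their first 150 bases are printed because reads from this stretch cannot be assigned to one copy, with the start codon in capitals.
Tmem254a: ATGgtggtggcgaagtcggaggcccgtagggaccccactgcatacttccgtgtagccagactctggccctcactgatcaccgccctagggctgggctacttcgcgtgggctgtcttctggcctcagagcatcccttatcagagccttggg
Tmem254b: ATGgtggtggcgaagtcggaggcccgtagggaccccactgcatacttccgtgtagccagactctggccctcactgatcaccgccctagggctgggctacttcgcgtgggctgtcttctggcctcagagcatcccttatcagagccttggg
Tmem254c: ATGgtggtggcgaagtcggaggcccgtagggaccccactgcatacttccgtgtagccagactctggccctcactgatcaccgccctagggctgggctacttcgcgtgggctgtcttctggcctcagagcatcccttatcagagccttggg
Every one of the 1036 stretches of 31 bases in the Tmem254c transcript also occurs in a transcript of another gene. Tmem254c was listed at 8.69, 16.6 and 6.70 TPM in ND and 0, 0.05 and 1.28 TPM in sHFD, a difference of -3.03, 95% interval -3.85 to -2.21, SE 0.37, adjusted p = 0.0313 in limma, and the 2 groups did not overlap. Tmem254b, which holds most of the summed TPM, was at 96.4, 92.7 and 105 TPM in ND and 99.0, 103 and 111 TPM in sHFD, and Tmem254a was at 5.05, 5.76 and 13.8 TPM in ND and 16.7, 10.3 and 2.68 TPM in sHFD. The sum of the 3 copies was 110, 115 and 126 TPM in ND and 116, 113 and 115 TPM in sHFD, groups that overlapped. With the copies summed to 1 feature, a step chosen after their values were seen, the difference was -0.03 (95% interval -0.35 to 0.29, adjusted p = 0.969 in limma), and no gene passed. The difference in Tmem254c is therefore reported as uncertain, since the share of reads given to each copy can move it.

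Gm5796 (chromosome 14, 4023941 to 4041368, GRCm38), a predicted gene outside the naming rule and named because it is 1 of the 2 calls, was listed at 4.34, 2.92 and 3.86 TPM in ND and 0, 0.46 and 0 TPM in sHFD. Its difference was -2.04, 95% interval -2.58 to -1.50, SE 0.25, adjusted p = 0.0313 in limma, with no overlap of the groups. In its transcript, 93.1% of 1787 stretches of 31 bases also occur in transcripts of 138 other genes, so this value too is uncertain. Neither call held when ND replicate 1 (adjusted p = 0.0646 for both), sHFD replicate 1 (0.109 for both) or sHFD replicate 2 (0.262 for Tmem254c and 0.142 for Gm5796) was left out. Gm5796 also lost its call without ND replicate 3 (0.0849) and without sHFD replicate 3 (0.299).

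**Figure D2:**
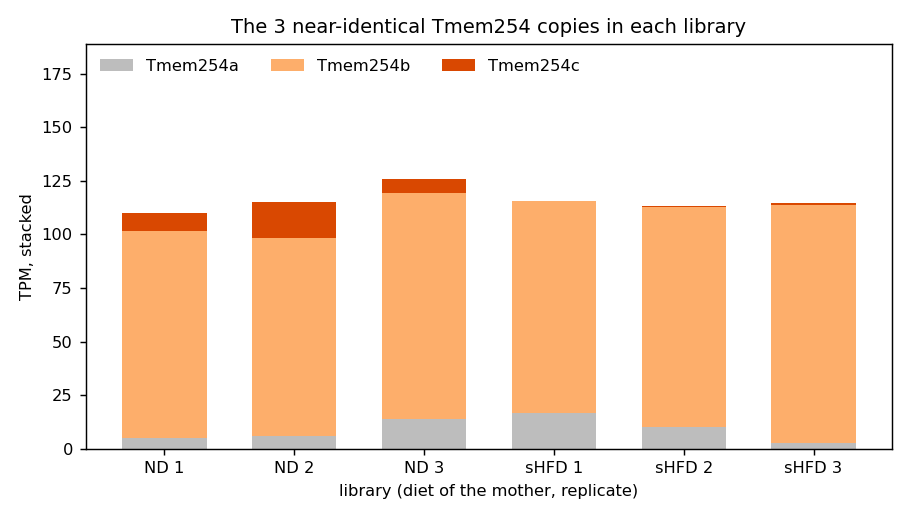
TPM (vertical axis, stacked) of the 3 Tmem254 copies in each of the 6 libraries (horizontal axis). The Tmem254c segment is 6.70 to 16.6 TPM in the ND libraries and at most 1.28 TPM in the sHFD libraries, while the whole column stays between 110 and 126 TPM.

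Among genes that averaged 5 TPM or more, the smallest unadjusted p in the upward direction belonged to Nnt (chromosome 13, 119335527 to 119409257, GRCm38), the mitochondrial transhydrogenase that makes NADPH from NADH. Nnt was at 62.7, 121 and 69.3 TPM in ND and 176, 206 and 165 TPM in sHFD, a difference of 1.16, 95% interval 0.65 to 1.67, with an adjusted p of 0.610 in limma. All 3 sHFD libraries lay above the highest ND library, and the 3 HFD libraries, at 89.5, 99.5 and 91.6 TPM, lay below all of them. C57BL/6J mice are known to carry a deletion of several exons within Nnt, which a gene-level TPM does not resolve. Plin4, a perilipin that coats lipid droplets (chromosome 17, 56100587 to 56109948, GRCm38), was at 9.08, 21.3 and 14.4 TPM in ND and 42.3, 34.6 and 26.3 TPM in sHFD with a difference of 1.20, 95% interval 0.57 to 1.83. Frmd5, a membrane-linked FERM domain gene, was at 7.39, 26.6 and 17.1 TPM in ND and 34.8, 51.3 and 40.3 TPM in sHFD with a difference of 1.40, 95% interval 0.62 to 2.18. Nppb, which encodes the natriuretic peptide BNP, was at 79.1, 40.1 and 98.4 TPM in ND and 256, 102 and 221 TPM in sHFD, and its sHFD replicate 2 was only just above ND replicate 3. The difference of Nppb was 1.39, 95% interval 0.60 to 2.18, while the atrial peptide Nppa was at 7291, 9232 and 9528 TPM in ND and 7432, 7477 and 11776 TPM in sHFD with a difference of 0.01, 95% interval -0.63 to 0.65. Smooth muscle actin Acta2 was at 617, 751 and 559 TPM in ND and 1586, 881 and 1097 TPM in sHFD, a difference of 0.85, 95% interval 0.35 to 1.36. The ventricular transcription factor Irx4 had a difference of 0.93, 95% interval 0.34 to 1.53 and the coactivator gene Ppargc1b, a PGC-1 family member, one of 1.00, 95% interval 0.38 to 1.62. All genes of this direction named here but Nppa, like Fbxl22 (0.84), Lrrc3b (0.86), Hspa12b (0.60), Fn3krp (1.17) and Cited4 (0.90), were picked among genes whose groups did not overlap. Their lack of overlap is thus no separate result, and none of them passed the threshold.

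In the downward direction Tmem254c was followed by genes of several kinds, none of them past the threshold. They too were picked only among genes whose groups did not overlap, so that trait is no separate result. Abi3bp, a matrix protein gene (chromosome 16, 56477801 to 56690135, GRCm38), was at 67.3, 41.7 and 51.5 TPM in ND and 20.8, 26.7 and 19.8 TPM in sHFD, a difference of -1.20, 95% interval -1.67 to -0.74. Spp1, which encodes osteopontin (chromosome 5, 104435111 to 104441053, GRCm38), was at 52.4, 47.9 and 25.5 TPM in ND and 8.75, 18.2 and 9.61 TPM in sHFD, a difference of -1.71, 95% interval -2.40 to -1.02, with an adjusted p of 0.610 in limma. In both genes every sHFD library lay below every ND library, ND replicate 2 included. Spp1 in the HFD libraries was 35.9, 37.6 and 38.8 TPM, within the range of ND. The cartilage and matrix genes Matn4 (-1.31, 95% interval -1.87 to -0.75), Itgbl1 (-1.20, 95% interval -1.77 to -0.63) and Cilp (-0.95, 95% interval -1.43 to -0.48) were also picked. Cma1, a mast cell chymase, was at 34.0, 38.2 and 27.9 TPM in ND and 15.9, 18.5 and 19.2 TPM in sHFD, a difference of -0.86, 95% interval -1.28 to -0.44. Rasgef1b (-1.13) and the arrestin-like gene Arrdc4 (-0.97) completed the named genes below ND outside the immediate-early list. The chemokine gene Ccl21c was at 8.76, 5.94 and 10.9 TPM in ND and 1.74, 4.13 and 1.63 TPM in sHFD, and Gm10591, Gm13304 and Gm21541 had the same TPM in every library, so 1 measurement stands behind these 4 rows.

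Because ND replicate 2 lay close to the sHFD libraries, the genes at least 2-fold apart from each ND library taken alone were listed as well. There were 15 of 13744, 2 higher and 13 lower. Of the 13 lower genes, 4 are the identical Ccl21c rows and 2 are the called genes. Spp1 differed by -2.09, -1.96 and -1.08 from ND replicates 1, 2 and 3. Ccl21a, a chemokine of lymphatic vessels (chromosome 4, 42772860 to 42773991, GRCm38), differed by -2.14, -1.71 and -2.32, and was at 106, 78.2 and 119.7 TPM in ND and 4.99, 67.0 and 33.9 TPM in sHFD. Its sHFD values spread over more than its ND values, with replicate 1 far the lowest. Vsnl1, a calcium sensor gene, was at 7.94, 6.10 and 5.82 TPM in ND and 1.14, 4.01 and 1.60 TPM in sHFD, a difference of -1.32, 95% interval -2.00 to -0.64. Pet117 and Zfp966 were each listed at 0 TPM in at least 1 sHFD library and overlapped with ND, and the other 2 lower genes, Gm3488 and Gm38538, carry predicted names. The 2 higher genes were listed at 0 in every ND library: Rps27rt, given above, and Gm1987, at 45.3 TPM in sHFD replicate 1 and 0 in the other 2.

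Contractile genes had positive differences against ND replicates 1 and 3 and values near 0 against ND replicate 2. Of 12 tested genes of the thick filament and its light chains, 8 had a positive difference and none passed, with a median of 0.49 beside 0.00295 over all genes. The list's median was 0.67, -0.04 and 0.69 against ND replicates 1, 2 and 3. Myl3, a ventricular light chain, was at 1553, 3441 and 2077 TPM in ND and 5175, 3477 and 3565 TPM in sHFD (difference 0.84, 95% interval 0.18 to 1.51), and it was the only member of the list whose groups did not overlap. The adult myosin gene Myh6 was at 5782, 7799.6 and 5329 TPM in ND and 9589.8, 9631 and 7143 TPM in sHFD (difference 0.49, 95% interval -0.12 to 1.09) and the fetal myosin gene Myh7 at 507, 193 and 213 TPM in ND and 258, 118 and 164 TPM in sHFD (difference -0.69, 95% interval -1.46 to 0.09). The intervals of both include 0. Among 13 thin filament, actin and troponin genes 12 were positive, 5 had sHFD libraries that all lay above ND, against 4.5% of all genes, and the median was 0.47. It was 0.80, 0.13 and 0.44 against ND replicates 1, 2 and 3, and 0.26 without ND replicate 1. Cardiac actin Actc1 was at 6032, 10789.6 and 7573 TPM in ND and 13383, 11523 and 12376 TPM in sHFD (difference 0.65, 95% interval 0.00 to 1.30) and skeletal actin Acta1 at 31.6, 23.7 and 24.9 TPM in ND and 71.0, 36.2 and 41.3 TPM in sHFD (difference 0.81, 95% interval 0.27 to 1.35). The troponin pair of the fetal-to-adult change, Tnni1 (0.38) and Tnni3 (0.28), had positive differences with overlapping groups in both. All 16 titin, Z-disc and costamere genes had positive differences, with a median of 0.38, or -0.06 against ND replicate 2 and 0.24 and 0.62 with ND replicate 1 and ND replicate 2 left out in turn. In this list the stretch-responsive gene Ankrd1 stood out at 389, 453 and 546 TPM in ND and 586, 778 and 823 TPM in sHFD (difference 0.65, 95% interval 0.22 to 1.08), with no overlap.

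Calcium handling and channel genes followed the same order of libraries. Of 15 genes of calcium release and reuptake 13 were positive, with a median of 0.39, and of -0.19 against ND replicate 2. It was 0.23, 0.64 and 0.25 with ND replicate 1, ND replicate 2 and sHFD replicate 2 left out in turn. Phospholamban, Pln, was at 529.7, 1975 and 839 TPM in ND and 1687, 1667 and 1601 TPM in sHFD, so ND replicate 2 lay above every sHFD library. The sodium-calcium exchanger Slc8a1 had a difference of 0.71, 95% interval 0.03 to 1.39. Connexin and ion channel genes had 11 of 16 positive, none passed, and their median was 0.20, or 0.51, -0.21 and 0.32 against ND replicates 1, 2 and 3. The channel median was 0.01, with 8 of 16 positive, without ND replicate 1. It was 0.43 without ND replicate 2 and 0.295 without sHFD replicate 1. Atrial genes had a negative median against each ND library, where the calcium list had one only against ND replicate 2. Of the atrial genes 11 of 13 were negative, the median was -0.39, and it was -0.23, -0.54 and -0.39 against ND replicates 1, 2 and 3. Without sHFD replicate 1 it was -0.21 with 8 of 13 negative. Summed, the list was at 15545, 18773 and 20127 TPM in ND and 12724, 14603 and 21799 TPM in sHFD, so sHFD replicate 3 lay above every ND library. Sarcolipin, Sln, an atrial inhibitor of the calcium pump, was at 367, 412 and 591 TPM in ND and 195, 246 and 387 TPM in sHFD (difference -0.75, 95% interval -1.32 to -0.19). The transcription factor Nr2f1, which specifies atrial identity, was at 20.2, 21.2 and 15.7 TPM in ND and 9.03, 12.9 and 14.0 TPM in sHFD (difference -0.64, 95% interval -1.13 to -0.14), with no overlap, and Dkk3 also did not overlap (-0.48, 95% interval -0.88 to -0.09). None of the 13 passed. The atrial light chains Myl4 and Myl7 varied within sHFD, at 2032, 2186 and 2578 TPM in ND and 1248, 1572 and 2594 TPM in sHFD for Myl4 and 3602, 3818 and 5026 TPM in ND and 2322, 2866 and 4361 TPM in sHFD for Myl7. The share of atrial tissue in each library cannot be told apart from RNA per cell, here or for any marker list below. Of 23 cardiac transcription factor genes 18 were positive and none passed. Their median was 0.23, or 0.34, -0.10 and 0.39 against ND replicates 1, 2 and 3. It was 0.14, 0.405, 0.15 and 0.14 with ND replicate 1, ND replicate 2, ND replicate 3 and sHFD replicate 2 left out in turn. In 3 of them all sHFD libraries lay above ND (4.5% of all genes). Irx4, given above, had the largest positive difference. Nkx2-5 had a difference of 0.19, 95% interval -0.16 to 0.53 and Gata4 one of 0.12, 95% interval -0.22 to 0.45, while Tbx5 had one of -0.61, 95% interval -1.13 to -0.08.

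Genes of lipid use had positive differences in most members. Of 19 PPAR-responsive and lipid storage genes 17 were positive, 7 had an unadjusted p under 0.05 in limma (2.71% of all genes in that direction), and 4 had sHFD libraries all above ND (4.5%). None passed the threshold. The median was 0.29, and 0.61, 0.06 and 0.38 against ND replicates 1, 2 and 3. The list's median was 0.18 and 0.47 with ND replicate 1 and ND replicate 2 left out in turn. After Plin4, the perilipin Plin5 was at 8.51, 21.7 and 12.5 TPM in ND and 28.5, 27.9 and 20.8 TPM in sHFD (difference 0.89, 95% interval 0.25 to 1.53) and the glycerol channel Aqp7 at 19.9, 45.5 and 42.6 TPM in ND and 67.0, 51.9 and 65.2 TPM in sHFD (difference 0.83, 95% interval 0.23 to 1.44). The PPAR targets Pdk4, at 82.9, 172 and 67.5 TPM in ND and 76.2, 96.9 and 84.7 TPM in sHFD (difference -0.21, 95% interval -0.84 to 0.42), and Angptl4, at 88.1, 119 and 136 TPM in ND and 124, 139 and 140.4 TPM in sHFD (difference 0.25, 95% interval -0.15 to 0.65), had intervals around 0. Among 16 regulators of the PPAR, PGC-1 and ERR group 12 were positive, with a median of 0.32, or 0.52, 0.07 and 0.39 against ND replicates 1, 2 and 3. The median of the regulators was 0.16, 0.58, 0.15 and 0.19 with ND replicate 1, ND replicate 2, ND replicate 3 and sHFD replicate 2 left out in turn. The receptor gene Ppara was at 2.30, 7.42 and 4.37 TPM in ND and 9.76, 9.66 and 9.18 TPM in sHFD, with every sHFD library above ND and a difference of 0.99, 95% interval 0.31 to 1.66, while Ppard had one of 0.11, 95% interval -0.33 to 0.54. Perm1, a muscle regulator of the PGC-1 and ERR pathway, was at 10.3, 38.7 and 17.5 TPM in ND and 48.6, 49.5 and 34.0 TPM in sHFD (difference 1.13, 95% interval 0.33 to 1.94).

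No gene of fatty acid uptake, the carnitine shuttle or oxidation passed the threshold. The 14 uptake genes had a median of 0.17, or 0.40, 0.02 and 0.29 against ND replicates 1, 2 and 3, and 0.33 without ND replicate 2. Cd36, the main fatty acid transporter, was at 1845, 1382 and 1554 TPM in ND and 1429, 1568 and 1635 TPM in sHFD (difference -0.04, 95% interval -0.46 to 0.39). Fabp3, the cardiac fatty acid binding protein, was at 1210.4, 2958 and 2064 TPM in ND and 4479.9, 2604 and 2829 TPM in sHFD (difference 0.72, 95% interval 0.00 to 1.44). All 17 genes of mitochondrial beta-oxidation were positive, from 0.07 to 0.53 in Hadhb, a subunit gene of the trifunctional enzyme, with a median of 0.37. None reached an unadjusted p of 0.05 and in none were the groups apart. The list's median was 0.77 against ND replicate 1, -0.14 against ND replicate 2 and 0.40 against ND replicate 3, and ND replicate 2 was the highest ND library in all 17 genes, against 49.7% of all genes. Over the 17 genes it was 0.15 and 0.62 with ND replicate 1 and ND replicate 2 left out in turn. The 9 genes of the carnitine shuttle had a median of 0.43, or 0.81, -0.05 and 0.54 against ND replicates 1, 2 and 3. That median was 0.26 and 0.65 with ND replicate 1 and ND replicate 2 left out in turn. Among them the muscle enzyme gene Cpt1b was at 147, 285 and 161 TPM in ND and 295, 322 and 252 TPM in sHFD (difference 0.61, 95% interval 0.09 to 1.12) and the liver-type Cpt1a at 96.6, 156 and 111 TPM in ND and 134, 176 and 129.8 TPM in sHFD (difference 0.29, 95% interval -0.16 to 0.74). Ketone body genes had a median of 0.24 over 9 members, or 0.46, -0.13 and 0.32 against ND replicates 1, 2 and 3. That median was 0.09 and 0.15 with ND replicate 1 and ND replicate 3 left out in turn. The monocarboxylate transporter Slc16a1, which carries ketone bodies and lactate, had a difference of 0.66, 95% interval 0.15 to 1.16. Sterol synthesis genes had a median of 0.29 over 20 members, 18 of them positive, or 0.65, -0.08 and 0.35 against ND replicates 1, 2 and 3. That median was 0.13 and 0.45 with ND replicate 1 and ND replicate 2 left out in turn. Of 14 fatty acid synthesis genes 9 were positive, but 6 without ND replicate 1 or without sHFD replicate 2, and their median was 0.06, or 0.12, -0.12 and 0.10 against ND replicates 1, 2 and 3. The uncoupling protein genes Ucp2 (0.04, 95% interval -0.34 to 0.41) and Ucp3 (0.90, 95% interval -0.29 to 2.10) did not pass, and Ucp3 ranged from 1.28 to 16.0 TPM within ND.

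Like the oxidation genes, the citric acid cycle and respiratory chain lists had medians nearest to 0 against ND replicate 2. All 16 citric acid cycle genes and all 35 nuclear genes of the respiratory chain and ATP synthase had positive differences, each list with a median of 0.35, and none passed. Against ND replicate 2 the medians were -0.04 and 0.10. An unadjusted p under 0.05 in limma was reached by 1 of the 16 and 5 of the 35 genes, all higher (2.71% of all genes in that direction), but by 0 of the 17 beta-oxidation genes. The citric acid cycle median was 0.19 and 0.54 with ND replicate 1 and ND replicate 2 left out in turn, and the respiratory one 0.21 without ND replicate 1. ND replicate 1 was the lowest ND library in all 35 respiratory genes, against 42.9% of all genes. Cytochrome c, Cycs, was at 112, 266 and 179.9 TPM in ND and 257, 245 and 304 TPM in sHFD (difference 0.61, 95% interval 0.03 to 1.18), and Ndufs7, a complex I subunit, was the only respiratory gene without overlap (0.46, 95% interval 0.06 to 0.86). Glycolysis had 19 of 21 genes positive, a median of 0.27, or 0.46, 0.04 and 0.36 against ND replicates 1, 2 and 3, and 5 genes with sHFD libraries all above ND (4.5% of all genes). The exception with the largest size was Pfkfb3, a kinase that activates glycolysis, at 43.1, 22.1 and 23.0 TPM in ND and 10.1, 20.3 and 8.49 TPM in sHFD (difference -1.15, 95% interval -1.87 to -0.43), all sHFD libraries below ND. Insulin-regulated glucose transporter Slc2a4 was at 26.4, 57.5 and 39.6 TPM in ND and 69.0, 62.2 and 60.8 TPM in sHFD (difference 0.69, 95% interval 0.16 to 1.22), also without overlap, and Slc2a1 had a difference of 0.12, 95% interval -0.25 to 0.50. Mitochondrial ribosomal genes had a median of 0.23 over 25 members, or 0.47, 0.03 and 0.17 against ND replicates 1, 2 and 3. That median was 0.12 and 0.37 with ND replicate 1 and ND replicate 2 left out in turn. Cytosolic ribosomal genes had one of -0.13, with 30 of 31 negative, but of 0.18 against ND replicate 2, which was the lowest ND library in all 31, and it was -0.29, -0.01, -0.20, 0.04 and -0.23 with ND replicate 2, ND replicate 3, sHFD replicate 1, sHFD replicate 2 and sHFD replicate 3 left out in turn.

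Proliferation genes, the subject of the series, showed no gene past the threshold and few small p-values. None of 35 genes of G2/M, spindle and cytokinesis had an unadjusted p under 0.05 in limma (5.97% of all genes) or groups that did not overlap (9.33%), and their median was 0.03, or -0.05, -0.06 and 0.31 against ND replicates 1, 2 and 3. With 1 library left out it ranged from -0.16 without sHFD replicate 2 to 0.12 without ND replicate 2. Mki67, expressed in cycling cells, was at 58.8, 57.4 and 37.0 TPM in ND and 48.0, 69.5 and 41.4 TPM in sHFD, a difference of 0.05, 95% interval -0.47 to 0.56, and the mitotic cyclin gene Ccnb1 at 29.8, 25.9 and 19.9 TPM in ND and 16.6, 27.2 and 21.0 TPM in sHFD, a difference of -0.22, 95% interval -0.72 to 0.28. These intervals bound a rise of Mki67 at 0.56 and a drop at -0.47 on the log2 scale. Within sHFD, replicate 2 was the highest in both genes. Of 32 genes of DNA replication and S-phase entry 25 were positive, none with an unadjusted p under 0.05, and the median was 0.16, or 0.49, -0.23 and 0.12 against ND replicates 1, 2 and 3. It was -0.05, 0.33, -0.08 and 0.27 with ND replicate 1, ND replicate 2, sHFD replicate 2 and sHFD replicate 3 left out in turn. Cyclin D1, Ccnd1, was at 101, 186 and 148 TPM in ND and 199, 271 and 192 TPM in sHFD, with every sHFD library above ND and a difference of 0.63, 95% interval 0.13 to 1.13 (adjusted p = 0.777 in limma), and Ccnd2 had one of 0.39, 95% interval -0.25 to 1.03.

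Among cell-cycle inhibitors and p53 targets 19 of 22 had negative differences, 8 had an unadjusted p under 0.05 (3.26% of all genes in that direction) and 4 had sHFD libraries all below ND (4.83%). The median was -0.42, and -0.80, -0.09 and -0.30 against ND replicates 1, 2 and 3, and -0.21 without ND replicate 1. The inhibitor gene Cdkn1a (p21) was at 454, 54.6 and 142 TPM in ND and 71.1, 76.5 and 57.5 TPM in sHFD, where ND replicate 2 lay below every sHFD library, and its difference was -1.16, 95% interval -2.35 to 0.04. Cdkn1b (p27) was at 89.6, 96.7 and 78.3 TPM in ND and 59.8, 73.5 and 65.6 TPM in sHFD (difference -0.41, 95% interval -0.76 to -0.05), without overlap and with similar values in the 3 ND libraries. Cdkn2b (p15) was at 1.72, 1.90 and 1.66 TPM in ND and 0.70, 0.94 and 0.47 TPM in sHFD (difference -0.70, 95% interval -1.19 to -0.22) and the antiproliferative gene Btg2 at 285, 97.8 and 198 TPM in ND and 65.7, 89.2 and 92.8 TPM in sHFD (difference -1.11, 95% interval -1.80 to -0.41), neither with overlap. Trp53 itself had a difference of 0.34, 95% interval -0.17 to 0.84.

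The lists with the largest medians were those of rapid transcription responses, and there ND replicates 1 and 3 lay apart from the other 4 libraries. Immediate-early genes encode transcription factors such as AP-1 and Egr and the phosphatases that limit their signals, and they respond within minutes to serum, stretch and other stimuli. All 27 tested members had negative differences, from -1.66 in the AP-1 gene Fosb to -0.14, and 22 had an unadjusted p under 0.05 (3.26% of all genes in that direction), but none passed and 9 had sHFD libraries all below ND (4.83%). The median was -0.98, made up of -1.81, -0.14 and -1.04 against ND replicates 1, 2 and 3, and -0.54 without ND replicate 1. ND replicate 1 was the highest ND library in 26 of 27 and ND replicate 2 the lowest in all 27, against 34% and 23.3% of all genes. Fos was at 1388, 413 and 1029.9 TPM in ND and 304, 368 and 372 TPM in sHFD, a difference of -1.27, 95% interval -2.04 to -0.50. Egr1 was at 1230.2, 371 and 889.9 TPM in ND and 243, 281 and 243 TPM in sHFD (difference -1.53, 95% interval -2.28 to -0.78), Ier2 at 486, 194 and 404 TPM in ND and 151, 155 and 133 TPM in sHFD (difference -1.20, 95% interval -1.82 to -0.58) and Egr2 at 15.2, 5.83 and 15.4 TPM in ND and 2.31, 4.65 and 2.87 TPM in sHFD (difference -1.55, 95% interval -2.31 to -0.79). In Fos, Egr1 and Ier2 ND replicate 2 was nearer to sHFD than to the other ND libraries, while still above each sHFD library. Without ND replicate 2, 22 of the 27 genes passed an adjusted p of 0.05 in limma, all lower, against 1.38% of all genes in that direction. Because that library was the lowest of ND in all 27, leaving it out widens the difference, so these calls are no separate result. Without ND replicate 1, 0 of all tested genes passed.

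Chemokines and cytokines had a median of -0.92 over 19 genes, with 17 negative, and of -1.78, -0.06 and -1.07 against ND replicates 1, 2 and 3. Il6 was at 18.7, 2.16 and 7.47 TPM in ND and 0.78, 1.30 and 0.77 TPM in sHFD (difference -2.06, 95% interval -3.17 to -0.96) and Cxcl10 at 10.8, 2.89 and 8.87 TPM in ND and 1.02, 1.95 and 1.21 TPM in sHFD (difference -1.70, 95% interval -2.52 to -0.88), both without overlap. Il1b, at 11.7, 14.8 and 40.2 TPM in ND and 9.67, 20.1 and 25.7 TPM in sHFD (difference -0.15, 95% interval -1.09 to 0.79), did not follow them, and its highest value was in ND replicate 3. Ccl7, a monocyte chemokine, had similar ND values and lower sHFD values, at 4.70, 4.89 and 3.95 TPM in ND and 2.30, 2.51 and 2.11 TPM in sHFD (difference -0.74, 95% interval -1.21 to -0.26). The 15 genes of the glucocorticoid receptor and its responses had a median of -0.71, with 14 negative, but of 0.17 against ND replicate 2 and of -0.33 without ND replicate 1. Among them Klf9 was at 127, 70.8 and 81.6 TPM in ND and 45.2, 67.8 and 47.2 TPM in sHFD (difference -0.77, 95% interval -1.28 to -0.25) and Sgk1 at 583, 221 and 317 TPM in ND and 204, 208 and 218 TPM in sHFD (difference -0.71, 95% interval -1.33 to -0.09), and the receptor-binding chaperone gene Fkbp5 had a difference of -0.10, 95% interval -0.72 to 0.52. Without ND replicate 2, the ND library nearest to sHFD, 13 of the 19 chemokine and cytokine genes and 8 of the 15 glucocorticoid genes passed, all lower. In that fit 1.38% of all genes passed in that direction. The library left out was the lowest of ND in 15 of the 19 and 12 of the 15 genes, so these calls are no separate result. Without ND replicate 1, 0 of all tested genes passed.

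**Figure D3:**
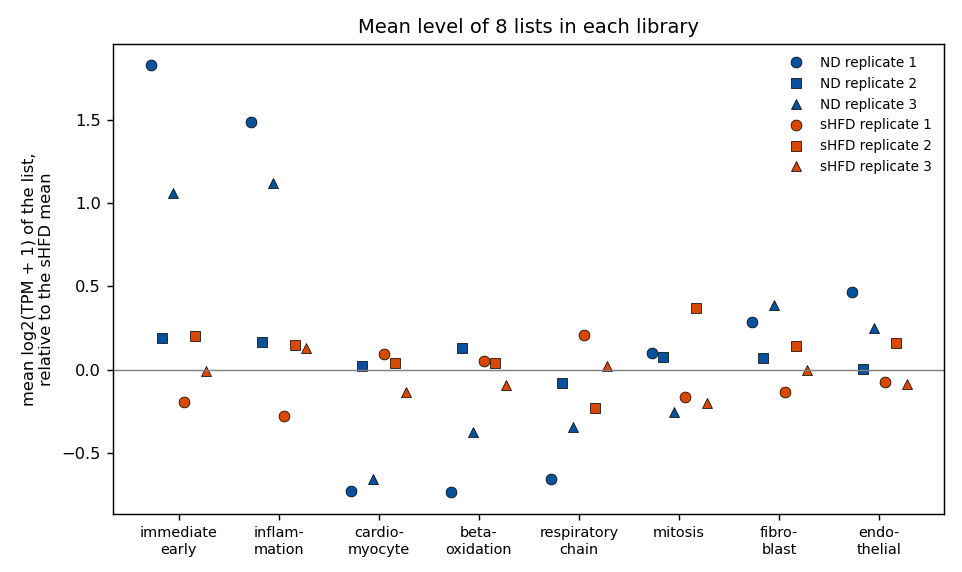
Mean log2(TPM + 1) over the tested members of 8 gene lists in each of the 6 libraries (vertical axis, relative to the mean of the 3 sHFD libraries). ND replicates 1 and 3 sit 1.83 and 1.06 above the sHFD mean for immediate-early genes and 0.73 and 0.66 below it for cardiomyocyte markers, while ND replicate 2 sits at 0.19 and 0.02.

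Heat-shock and clock genes were separated mainly by ND replicate 1. The inducible chaperones Hspa1a, at 1633, 22.9 and 244 TPM in ND and 216, 88.2 and 223 TPM in sHFD, and Hspa1b, at 1527, 40.2 and 229 TPM in ND and 213, 103 and 252 TPM in sHFD, spanned over an order of magnitude within ND, and their differences, -0.38, 95% interval -2.76 to 2.00 and -0.45, 95% interval -2.50 to 1.59, had wide intervals that include 0. Hsph1, 86.7, 17.1 and 14.5 TPM in ND and 14.4, 18.1 and 16.5 TPM in sHFD, was at a like level in all libraries but ND replicate 1. The list of 18 heat-shock genes had a median of -0.19, or -0.41, -0.03 and 0.06 against ND replicates 1, 2 and 3, and 0.02 and -0.11 with ND replicate 1 and sHFD replicate 1 left out in turn, and 0 passed. Of the 18, 2 had an unadjusted p under 0.05 in limma, 1 in each direction, against 5.97% of all genes. Of those 2, the mitochondrial chaperone gene Hspd1 had the positive difference, 0.43, 95% interval 0.02 to 0.83. Of 13 heat-shock genes with a RefSeq promoter (GRCm38.p6, 300 bases from 250 before the transcription start to 50 after it), 10 (76.9%) held the letters GAANNTTC on either strand, as did 785 of 10941 tested genes with a promoter (7.17%). The windows upstream of Hspa1b (chr17:34959309-34959368, minus strand) and Hspa1a (chr17:34972227-34972286, minus strand) are shown, in RefSeq's sequence with the match in capitals, because the pair has the same letters there and near-identical transcripts, so reads may be shared between them.
Hspa1b: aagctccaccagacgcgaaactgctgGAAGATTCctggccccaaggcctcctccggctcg
Hspa1a: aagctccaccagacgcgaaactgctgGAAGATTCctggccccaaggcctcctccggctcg
A match is a description of the sequence and does not show that a factor was bound.

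In the clock list the smallest p-values were those of 3 repressors. Per2 was at 78.3, 19.4 and 25.1 TPM in ND and 12.02, 22.6 and 9.59 TPM in sHFD (difference -1.23, 95% interval -2.21 to -0.25), Bhlhe40 at 279, 50.2 and 104 TPM in ND and 31.3, 67.8 and 35.4 TPM in sHFD (difference -1.41, 95% interval -2.48 to -0.34) and Ciart at 28.9, 7.89 and 7.92 TPM in ND and 4.75, 6.86 and 3.66 TPM in sHFD (difference -1.16, 95% interval -2.08 to -0.24). The activators Arntl (-0.14, 95% interval -0.56 to 0.27) and Clock (-0.08, 95% interval -0.57 to 0.41) had intervals around 0. Over 17 clock genes the median was -0.35, and -0.74, -0.23 and -0.09 against ND replicates 1, 2 and 3, and -0.16 without ND replicate 1. The E-box letters CACGTG were in the promoter of 5 of 14 clock genes (35.7%) and of 11.4% of all tested genes with one, and the cyclic AMP response element TGACGTCA in 2 of 22 immediate-early genes (9.09%) and in 3.32% of all. One window of each kind is shown, both upstream of the start and with the match in capitals, from Ciart (chr3:95882313-95882370, minus strand) and from the phosphatase gene Dusp1 (chr17:26508582-26508641, minus strand).
Ciart: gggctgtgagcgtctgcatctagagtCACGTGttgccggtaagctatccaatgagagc
Dusp1: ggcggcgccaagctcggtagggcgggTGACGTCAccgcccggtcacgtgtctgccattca
Dusp1 was at 624, 267 and 441 TPM in ND and 199, 274 and 238 TPM in sHFD, a difference of -0.83, 95% interval -1.42 to -0.24.

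**Figure D4:**
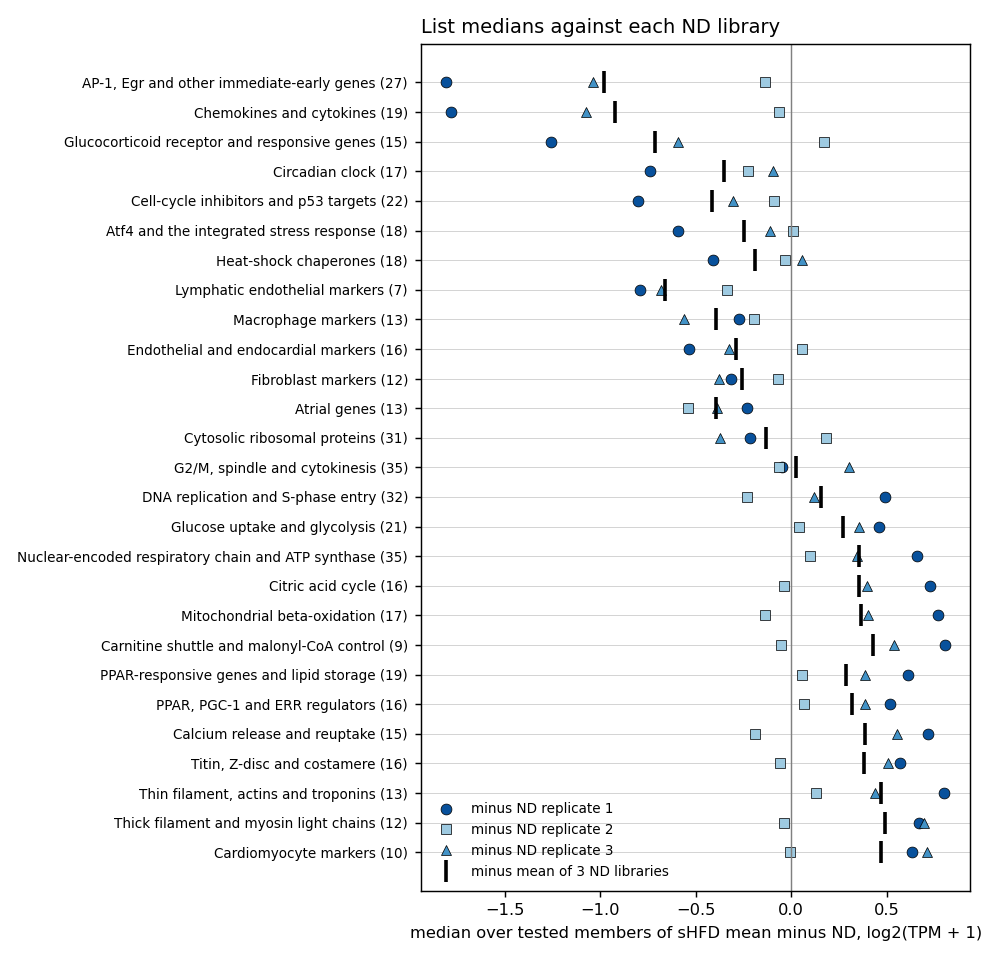
Median over the tested members of 27 gene lists (number of members in brackets) of the sHFD mean minus each ND library and minus the ND mean, on the log2(TPM + 1) scale (horizontal axis). Immediate-early genes lie at -1.81, -0.14 and -1.04 and cardiomyocyte markers at 0.63, 0.00 and 0.71 against ND replicates 1, 2 and 3, both nearest to 0 against ND replicate 2.

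Other stress and growth lists had medians of 0.37 or less in size. The largest was that of 9 neuregulin and ErbB genes, -0.37, or -0.24, -0.35 and -0.13 against ND replicates 1, 2 and 3. It was -0.23 without ND replicate 1. In 3 of the 9 all sHFD libraries lay below ND (4.83% of all genes) and in 1 above (4.5%), and none passed. Endoplasmic reticulum chaperone genes had a median of -0.12 over 18 members, or -0.04 and -0.22 with sHFD replicate 1 and sHFD replicate 2 left out in turn, with Dnajb9 at 64.3, 51.4 and 39.1 TPM in ND and 29.4, 32.2 and 37.5 TPM in sHFD (difference -0.61, 95% interval -1.06 to -0.16) without overlap. The integrated stress response had a median of -0.25 over 18, or -0.59, 0.01 and -0.11 against ND replicates 1, 2 and 3. That median was -0.01 and -0.41 with ND replicate 1 and ND replicate 2 left out in turn. In it Atf4 had a difference of -0.55, 95% interval -1.09 to -0.01 and the phosphatase subunit Ppp1r15a one of -1.33, 95% interval -2.33 to -0.34, with ND replicate 1 the highest ND library in 12 of 18. Of antioxidant genes 12 of 21 had positive differences (9 to 15 with 1 library left out), and of hypoxia genes 10 of 19 (6 to 11). Adrenomedullin, Adm, was at 34.7, 28.4 and 27.2 TPM in ND and 19.0, 21.9 and 17.5 TPM in sHFD (difference -0.60, 95% interval -1.02 to -0.19), without overlap. In the insulin and IGF group Igf2 was at 3892, 3359.9 and 3539 TPM in ND and 2602, 3326 and 2682 TPM in sHFD (difference -0.33, 95% interval -0.81 to 0.14), all sHFD libraries below ND, and Igf1 had a difference of -0.10, 95% interval -0.56 to 0.36. Of the genes that break down retinoic acid, Cyp26a1 was at 9.45, 8.77 and 14.7 TPM in ND and 6.41, 5.17 and 4.31 TPM in sHFD (difference -0.91, 95% interval -1.46 to -0.36) and Cyp26b1 at 5.49, 4.72 and 4.22 TPM in ND and 2.85, 3.07 and 2.94 TPM in sHFD (difference -0.55, 95% interval -1.02 to -0.08), both without overlap and neither past the threshold. The synthesis enzyme gene Aldh1a2 had a difference of 0.51, 95% interval -0.04 to 1.06. Imprinted growth genes had a median of -0.12 over 14, or -0.06 without sHFD replicate 1, and proteasome genes one of 0.08 over 26, or 0.04 without ND replicate 1. DNA methylation writers and erasers together with sirtuin and NAD salvage genes had a median of 0.25 over 18, or 0.62, -0.11 and 0.24 against ND replicates 1, 2 and 3. It was 0.07, 0.42 and 0.09 with ND replicate 1, ND replicate 2 and sHFD replicate 2 left out in turn. Among them were Dnmt1 at 0.43, 95% interval -0.12 to 0.98, Dnmt3a at 0.30, 95% interval -0.19 to 0.79 and Sirt1 at -0.45, 95% interval -0.95 to 0.06. Carbonic anhydrase 3, Car3, was at 17.4, 16.3 and 14.3 TPM in ND and 13.3, 10.6 and 13.3 TPM in sHFD, a difference of -0.34, 95% interval -0.79 to 0.10, with all sHFD libraries below ND.

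The labelled cell type was checked by its markers. All 10 cardiomyocyte markers were expressed in every library, summing to 19788, 31847 and 22955 TPM in ND and 40307, 33546 and 32788 TPM in sHFD. All 10 had positive differences, with a median of 0.47, which was 0.63, 0.00 and 0.71 against ND replicates 1, 2 and 3. ND replicate 2 and the sHFD libraries were thus at like levels and ND replicates 1 and 3 below them, the same order as in the contractile and oxidation lists above. Markers such as Myh6, Actc1 and Pln are also members of the contractile and calcium lists, so the order shared with those was partly built in. None of the 10 markers passed, and the part of the cell mixture in the contractile and oxidation lists was not tested. Markers of other heart cells were present throughout. Fibroblast markers, 12 of 12 tested, summed to 12712 to 16832 TPM in ND and 10849 to 13681 TPM in sHFD, with 10 negative and a median of -0.26. Endothelial markers, 16 of 16 tested, summed to 3951 to 5880 TPM in ND and 3830 to 4340 TPM in sHFD, with 14 negative and a median of -0.29, but of 0.06 against ND replicate 2 and of -0.12 and -0.44 with ND replicate 1 and ND replicate 2 left out in turn. Of 9 epicardial markers 8 were positive, with a median of 0.25, or 0.32, -0.05 and 0.38 against ND replicates 1, 2 and 3. It ranged from 0.07, with 5 of 9 positive, without sHFD replicate 3 to 0.45 without ND replicate 2. Of 11 mural markers 9 were positive, with a median of 0.16, or 0.19, 0.03 and 0.11 against ND replicates 1, 2 and 3, and 0.07 without sHFD replicate 1.

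Lymphatic endothelial and macrophage markers had negative medians against each ND library. So did the fibroblast markers above (-0.31, -0.07 and -0.38 against ND replicates 1, 2 and 3) and other leukocyte markers (-0.18, -0.07 and -0.46). Of 13 such leukocyte markers 11 were negative, with a median of -0.15. With 1 library left out it ranged from -0.38 without sHFD replicate 2 to -0.02 without sHFD replicate 1. Of 7 lymphatic markers 6 were negative and 4 had an unadjusted p under 0.05 (3.26% of all genes in that direction), none past the threshold, with a median of -0.66, or -0.79, -0.33 and -0.68 against ND replicates 1, 2 and 3. The hyaluronan receptor gene Lyve1 was at 95.8, 80.1 and 89.8 TPM in ND and 42.2, 69.8 and 58.3 TPM in sHFD (difference -0.66, 95% interval -1.09 to -0.23), without overlap, and Mmrn1 had a difference of -0.88, 95% interval -1.51 to -0.24, but the lymphatic transcription factor Prox1, which cardiomyocytes also express, had one of 0.48, 95% interval -0.17 to 1.12. Summed, the list was at 377, 289 and 341 TPM in ND and 148, 284 and 196 TPM in sHFD. Macrophage markers had 11 of 13 negative and a median of -0.39, or -0.27, -0.20 and -0.56 against ND replicates 1, 2 and 3. They summed to 482 to 696 TPM in ND and 368 to 468 TPM in sHFD. Complement gene C1qa was at 81.9, 61.0 and 111 TPM in ND and 48.4, 51.7 and 65.1 TPM in sHFD (difference -0.58, 95% interval -1.06 to -0.10) and the receptor gene Csf1r at 45.7, 51.5 and 59.5 TPM in ND and 32.4, 56.2 and 38.6 TPM in sHFD (difference -0.32, 95% interval -0.80 to 0.15).

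Other carry-over differed by library more than by diet. Red cell markers summed to 8159, 8179 and 18897 TPM in ND and 13087, 9440 and 11879 TPM in sHFD, with ND replicate 3 the highest. The cartilage collagen gene Col2a1 was at 84.9, 3.31 and 6.16 TPM in ND and 1.66, 2.56 and 1.44 TPM in sHFD (difference -2.28, 95% interval -4.08 to -0.48), so its level was carried by ND replicate 1. The Y-linked gene Ddx3y was at 43.9, 48.5 and 33.8 TPM in ND and 40.5, 51.0 and 13.6 TPM in sHFD, and sHFD replicate 3 was the lowest library in it and in Eif2s3y and Kdm5d. The effect of the share of male tissue on the other genes was not tested. Cd3e of T cells and the lung genes Sftpc and Sftpb stayed at or below 0.47 TPM in all 6 libraries, and the airway gene Scgb1a1 was at 3.30 TPM in ND replicate 1 and 0 in the other 5.

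**Figure D5:**
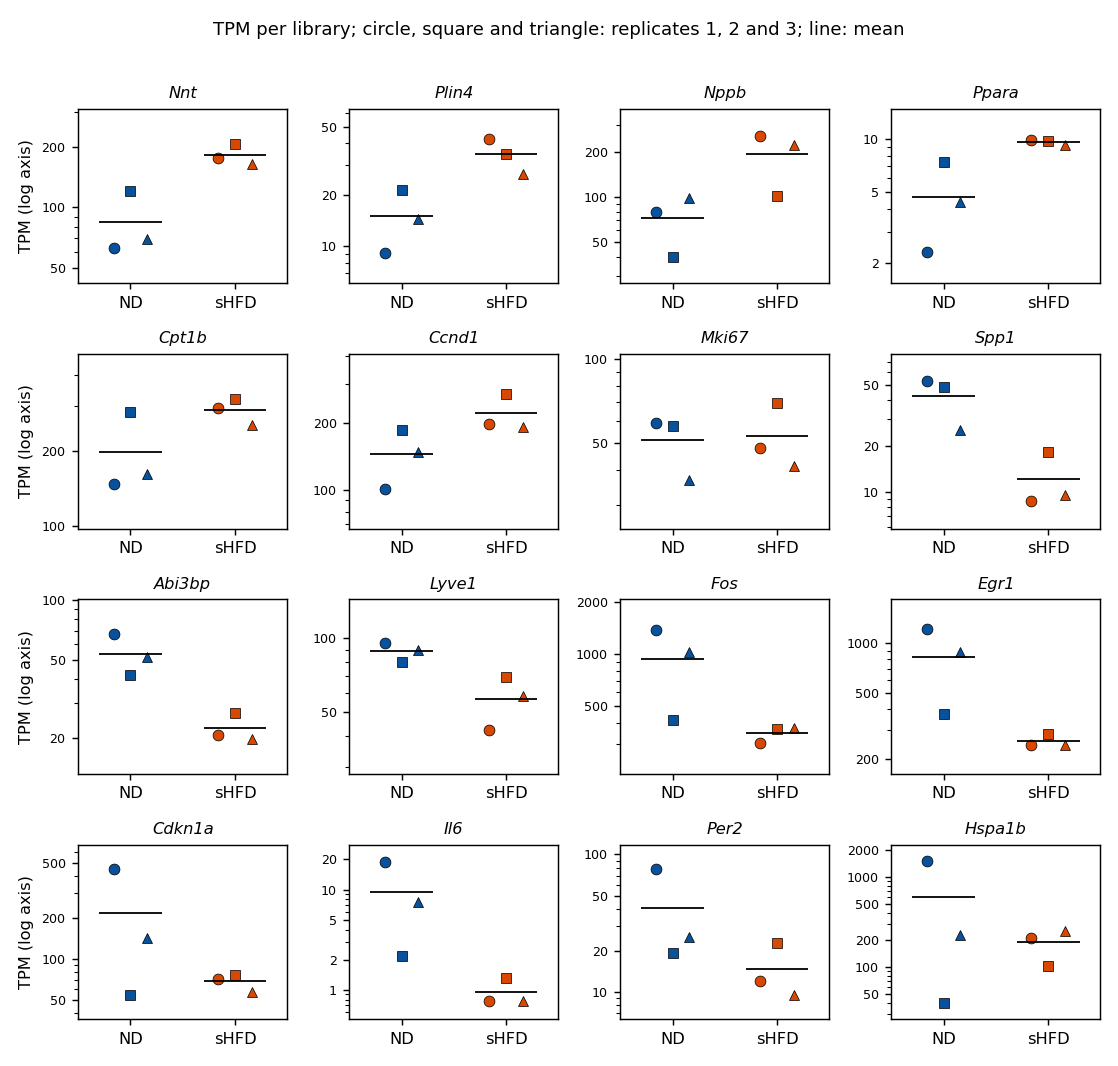
TPM of 16 genes in each library (vertical log axes that differ between panels), with ND in blue, sHFD in orange, symbols for replicates and lines for group means. Nnt, Plin4, Nppb and Ppara lie above ND and Spp1, Abi3bp and Lyve1 below ND in all 3 sHFD libraries, while in Cdkn1a and Hspa1b ND replicate 2 is the lowest of the 6.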

How the data were processed

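The 6 libraries were sequenced from mRNA of cells labelled as cardiomyocytes, made from 1 ug of total RNA each per the labels' protocols. The authors deposited a table of TPM per gene for all 9 libraries, whose columns are named for a control, a middle and a high diet, read as ND, sHFD and HFD of the labels with the same replicate numbers. Per the submitters' processing notes RSEM 1.3.1 and GRCm38 were used, while for the aligner and the annotation nothing is given in the sources used here. TPM keeps no depth, so the reads behind a value are unknown and no count test or counting interval was made.

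Genes averaging 1 TPM or more across the 6 libraries entered the test, on log2(TPM + 1) with limma 3.58.1 in R 4.3.3 (moderated test with an intensity trend, two-sided, 4 residual degrees of freedom, Benjamini-Hochberg adjustment over 13744 genes, threshold 0.05), without HFD and without a replicate block. A single-gene exact permutation test of 3 against 3 cannot go below p = 0.1 and was not used. On simulated data with the same genes the test recovered 0 of 70 genes changed by 0.5, 27 of 70 changed by 1 and 47 of 60 changed by 2 on the log2 scale, with 1 false call among 75. The simulation drew each gene independently and gave 75 calls, against 2 in the data, so its adjusted threshold was easier to pass. Gene lists are described by counts and medians, beside those of all genes. They hold 899 distinct genes, of which 56 are in more than 1 list.

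Named genes are those averaging 5 TPM or more that have a regular symbol: the 12 with the largest change in each direction among called genes without overlap, filled up by the smallest unadjusted p among other genes without overlap. To these were added, without that condition, the first 2 members and the 3 smallest p of each list and a set of fixed genes, of which those that a result turns on are printed. Genes at least 2-fold from each ND library, Dusp1, Hsph1 and the Tmem254 copies were added after their values were seen. Some genes that the rule picks are not reported here. The gene lists, the markers and the comparison itself were chosen with earlier results of these data known. Alternatives are other fits, scalings, pseudocounts, filters and library weights, and each library left out in turn.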

Additional observations from a re-analysis of the deposited data

How the results depend on the processing

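Both calls depend on the settings. With TPM rescaled after removal of haemoglobin genes 2 genes were called, as in the report, and with all 9 libraries in one fit or with no intensity trend 1 gene, lower in both cases (Gm5796). Median-ratio scaling, quantile normalization, a pseudocount of 0.1 or 5 TPM, no filter on low values and a minimum mean of 5 TPM each gave 0 calls in limma, with 652 to 1033 genes at an unadjusted p under 0.05. With the Tmem254 copies summed, an alternative chosen after seeing the data, the count was 0 and 820 had such a p. Estimated library weights gave 3372 calls (1908 higher, 1464 lower), but the estimation did not reach its convergence tolerance and put most weight on ND replicate 3 (8.15) and sHFD replicate 3 (3.71). Leaving out 1 library gave 0 to 464 calls, 0 to 274 higher and 0 to 190 lower. The cause was not tested.

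A replicate block, since the labels number both groups 1 to 3, gave 0 calls, with 1169 genes at an unadjusted p under 0.05. Deviations from the group means of same-numbered libraries correlated at 0.0175, 0.16 and 0.126, and ND replicate 3 correlated best with sHFD replicate 1 (0.264), so the libraries were treated as sharing only a number.

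Of 2044 values of 114 named genes under alternatives, 32 changed sign, none of them of a called gene. With estimated library weights these were Ccnb1 (0.0169), Cd36 (0.0311), Clock (0.25), Hspa1b (0.000416), Igf1 (0.0304), Pdk4 (0.25), Ppard (-0.0544), Trp53 (-0.0161) and Ucp2 (-0.21). With quantile normalization it was Nppa (-0.30). When 1 library was left out, genes with a change of sign ranged as follows: Cd36 (-0.14 to 0.0729), Clock (-0.26 to 0.0803), Fkbp5 (-0.45 to 0.0811), Hspa1a (-1.96 to 1.09), Hspa1b (-1.73 to 0.87), Igf1 (-0.27 to 0.0944), Il1b (-0.49 to 0.36), Mki67 (-0.17 to 0.20), Nppa (-0.21 to 0.12), Pdk4 (-0.48 to 0.19), Ppard (-0.00672 to 0.28) and Ucp2 (-0.0572 to 0.13). Of 1026 list medians under alternatives 992 moved by less than the spread of the list over the ND libraries (1 SD), which is itself wide. Of the 34 that moved, 23 did so with 1 library left out. A replicate block, all 9 libraries in one fit, no intensity trend and no filter on low values cannot change a gene's difference or a list median. Part of the agreement in these counts of genes and lists was therefore fixed in advance. With 3 libraries a group and the ND spread above, most differences under 2-fold in a single gene could not have been called.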
